A study of Arabidopsis thaliana with 18 samples.

Results

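UGT78D2, AT1G06000 and CHIL act in the making and sugar decoration of flavonoids, and their transcripts were followed here in dark-grown Arabidopsis seedlings given far-red light. The 3 genes are those probe sets that the platform's probe-to-gene table assigns to UGT78D2, AT1G06000 or CHIL alone, 1 probe set each. They are 3 of 13350 genes measured by a probe set of their own (13513 single-gene probe sets, among 22746 tested in all). They were chosen by their measured log2 values in all 6 groups of the series, so those values are given as a description, without a test. No p value is attached to any of the 3 genes.

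Whole seedlings of ecotype Columbia were compared, either the pif4pif5 double mutant, which lacks the transcription factors PIF4 and PIF5, or wild type. About 100 seeds were plated, kept cold and dark for 3 days, germinated with red light (50 µmol/m2/s for 3 h), and then grown in darkness for 3 days. Each genotype has a dark group, a group that then received far-red light (0.5 µmol/m2/s) for 1 h, and a group that received it (5 µmol/m2/s) for 24 h. Each of the 6 groups has 3 arrays, replicates A, B and C, and nothing in the labels says that they were separate cultures, so their spread may be technical. Duration, fluence rate and seedling age change together at 24 h and cannot be told apart. PIF4 and PIF5 have no probe set of their own in the table used, so the genotype labels were not checked on the mutated genes.

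Flavonoids are built from phenylalanine: chalcone synthase and chalcone isomerase form the core, which is oxidised to flavonols or reduced towards anthocyanins, and sugars are then attached by glycosyltransferases. In seedlings these compounds accumulate in the light and screen tissue against radiation, and the bZIP factors HY5 and HYH and several MYB factors switch on genes of the pathway. Far-red light is sensed by phytochrome A, while PIF4 and PIF5 promote growth in darkness and shade and are bound by active phytochrome. CHIL is a chalcone isomerase-like protein without isomerase activity that helps chalcone synthase make the right product. UGT78D2 attaches glucose at the 3-O position of flavonols and anthocyanidins, and AT1G06000 encodes the enzyme that attaches rhamnose at the 7-O position of flavonols.

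The values are log2 signal intensities as deposited, so a difference of 1 is a doubling of signal, and signal of one probe set is not compared with that of another. Array medians lay between 5.60 and 5.88, except 6.16 on wild-type dark replicate C, and replicate arrays correlated with r between 0.967 and 0.997. Against the dark group, the median difference over all probe sets at 1 h and 24 h was -0.07 and -0.04 in pif4pif5, and -0.12 at both times in wild type. Leaf-type photosynthesis markers (4 of 6 listed genes measured) had array means between 10.0 and 11.8, root markers (2 of 8) between 7.38 and 8.08, and the seed oil body gene OLEO3 (1 of 7 seed reserve genes) between 5.09 and 8.64. At 24 h OLEO3 fell, by a limma difference from darkness of -2.93 in pif4pif5 and -1.82 in wild type, and RCA, the activase of Rubisco, rose (1.13 and 1.56). In whole seedlings, fewer cells of a type and less RNA per cell cannot be told apart, and the part of such shifts in the results below was not tested.

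The order of the means over the light conditions was not the same for the 3 genes. The 1 h and 24 h groups also differ in fluence rate, so they are not points of 1 time course. UGT78D2 was about 3-fold higher than in darkness after 1 h of far-red light in both genotypes and about 2-fold higher at 24 h. AT1G06000 was higher by a similar factor at 1 h, but at 24 h it stood below its dark level. CHIL was higher on average in far-red light, yet with all arrays it overlapped between all pairs of groups compared here. With all arrays the genotypes overlapped for each gene in each condition. At 1 h this overlap came from 1 array, pif4pif5 replicate C: replicates A and B of pif4pif5 were above every wild-type 1 h array for all 3 genes. Replicate C was likewise the lowest of the wild-type 1 h arrays for each gene.

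**Figure D1:**
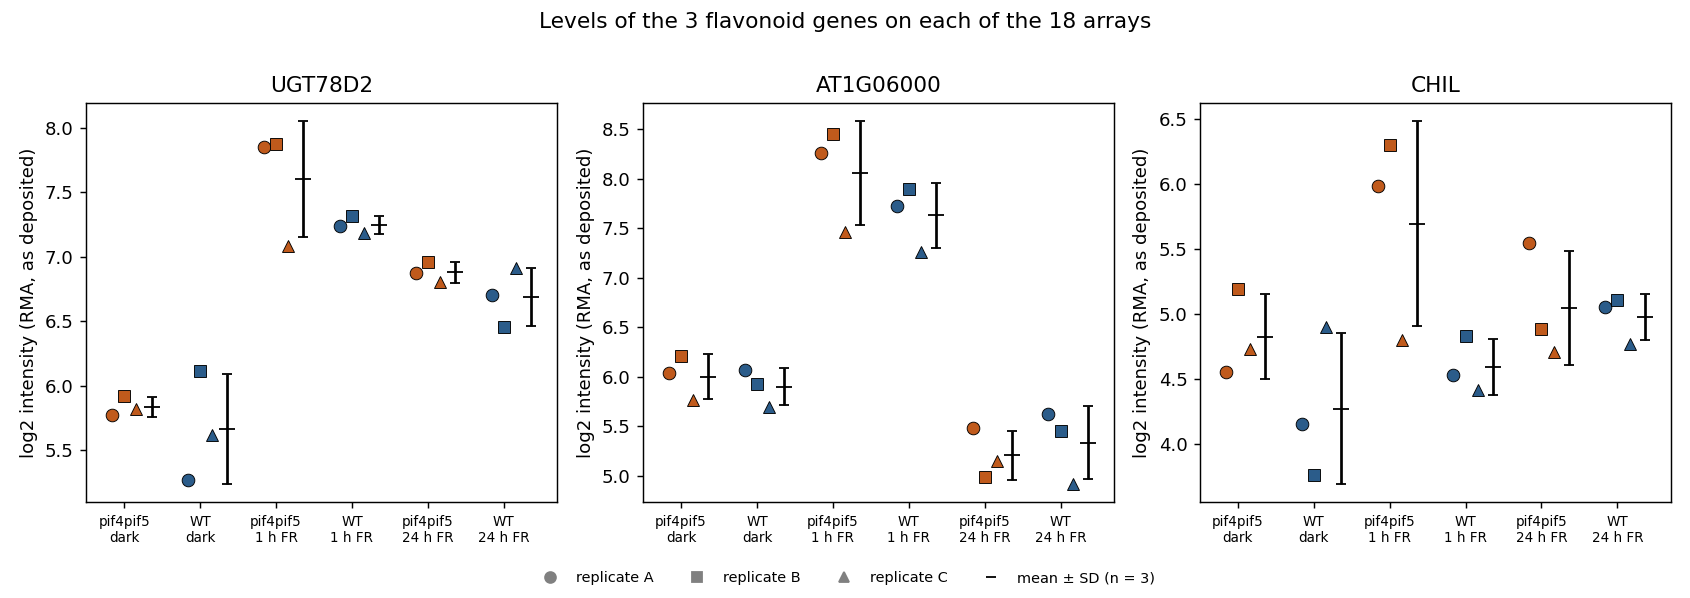
Log2 intensity (y axis) of UGT78D2, AT1G06000 and CHIL on each of the 18 arrays by group (x axis: pif4pif5 beside wild type in darkness, at 1 h and at 24 h of far-red light, FR); symbols mark replicates A to C and bars the mean ± SD (n = 3). UGT78D2 lies above its dark level at both times, AT1G06000 is above it at 1 h and below it at 24 h, and replicate C is the lowest of the 3 pif4pif5 arrays at 1 h in every panel.

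In darkness UGT78D2, the 3-O-glucosyltransferase gene, read 5.77, 5.92 and 5.82 in pif4pif5, against 5.27, 6.11 and 5.62 in wild type (replicates A, B and C). After 1 h of far-red light it read 7.85, 7.87 and 7.08 in pif4pif5, against 7.24, 7.32 and 7.18 in wild type. After 24 h it read 6.88, 6.96 and 6.80 in pif4pif5, against 6.70, 6.46 and 6.91 in wild type. All 6 arrays of 1 h far-red light were above all 6 of 24 h, and these in turn were above all 6 dark arrays. Within each condition the arrays of the genotypes overlapped, and the order of the group means was pif4pif5 1 h, wild type 1 h, pif4pif5 24 h, wild type 24 h, pif4pif5 dark and wild type dark.

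For UGT78D2 the mean at 1 h was higher than in darkness by 1.76 (SE 0.21, 3.40-fold) in pif4pif5 and by 1.58 (SE 0.21, 2.99-fold) in wild type, where SE is the standard error of a linear model fitted to all 18 arrays. These were the 6th and the 9th largest positive differences of the 13513 single-gene probe sets. At 24 h the difference from darkness was 1.04 (SE 0.21, 2.06-fold) in pif4pif5 and 1.02 (SE 0.21, 2.03-fold) in wild type. Between 24 h and 1 h it was -0.72 (SE 0.21) in pif4pif5 and -0.56 (SE 0.21) in wild type, so the 24 h level was below the 1 h level in both. Each of these differences was over 2 times the pooled SD of its groups, the smallest being 2.23 times for 24 h against 1 h in pif4pif5.

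In darkness AT1G06000, the flavonol 7-O-rhamnosyltransferase gene, read 6.04, 6.21 and 5.76 in pif4pif5, against 6.07, 5.93 and 5.70 in wild type. After 1 h of far-red light it read 8.25, 8.45 and 7.46 in pif4pif5, against 7.73, 7.90 and 7.26 in wild type. After 24 h it read 5.48, 4.99 and 5.15 in pif4pif5, against 5.63, 5.46 and 4.92 in wild type. In both genotypes the level was thus highest at 1 h and lower at 24 h than in darkness, with no overlap between the 3 conditions. The lowest 1 h array (7.26) is above the highest dark array (6.21), and the lowest dark array (5.70) is above the highest 24 h array (5.63). The genotypes overlapped within each condition, and the order of the means was pif4pif5 1 h, wild type 1 h, pif4pif5 dark, wild type dark, wild type 24 h and pif4pif5 24 h.

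For AT1G06000 the mean at 1 h was higher than in darkness by 2.05 (SE 0.24, 4.14-fold) in pif4pif5 and by 1.73 (SE 0.24, 3.31-fold) in wild type, the 4th and the 5th largest positive differences of the single-gene probe sets. At 24 h it was lower than in darkness, with a difference of -0.79 (SE 0.24, 1.73-fold) in pif4pif5 and -0.56 (SE 0.24, 1.48-fold) in wild type. Its largest differences were those between the light treatments. The difference of 24 h from 1 h was -2.84 (SE 0.24, 7.18-fold) in pif4pif5 and -2.29 (SE 0.24, 4.90-fold) in wild type, which ranked 9th and 5th among the negative differences of the single-gene probe sets. Without wild-type 24 h replicate C, the lowest of its group, the wild-type difference of 24 h from darkness was -0.36, against -0.71 without replicate A.

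In darkness CHIL, the chalcone isomerase-like gene, read 4.56, 5.19 and 4.73 in pif4pif5, against 4.15, 3.76 and 4.90 in wild type. After 1 h of far-red light it read 5.99, 6.29 and 4.80 in pif4pif5, against 4.53, 4.83 and 4.41 in wild type. After 24 h it read 5.54, 4.88 and 4.71 in pif4pif5, against 5.05, 5.10 and 4.77 in wild type. The highest readings are pif4pif5 replicates A and B at 1 h, which stand above all other arrays, while replicate C of that group lies among the dark arrays of the same genotype. No neighbours in the order of the group means were separated, that order being pif4pif5 1 h, pif4pif5 24 h, wild type 24 h, pif4pif5 dark, wild type 1 h and wild type dark.

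For CHIL the mean at 1 h differed from darkness by 0.87 (SE 0.33) in pif4pif5 and by 0.32 (SE 0.33) in wild type. At 24 h the difference was 0.22 (SE 0.33) in pif4pif5 and 0.70 (SE 0.33) in wild type. These values depend on single arrays. Without pif4pif5 1 h replicate C, the lowest of its group, the mutant difference at 1 h was 1.31, and without replicate B it was 0.57. Leaving out replicate C also ended the overlap with darkness, and 9.11% of all probe sets were then entirely above darkness. That array was the lowest of its group for CHIL, but for 37.4% of all probe sets. CHIL and the share are therefore not on like terms. The mutant difference at 24 h was -0.03 without 24 h replicate A. In wild type the dark array with the highest CHIL reading is replicate C, which is also the array with the highest median. Without it the differences were 0.63 at 1 h and 1.02 at 24 h, and without wild-type dark replicate B, the lowest, they were 0.06 and 0.45.

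Counted over the 3 genes, the far-red and dark arrays did not overlap for UGT78D2 and AT1G06000 at 1 h, both higher, in each genotype. Over all probe sets the far-red arrays were entirely higher at 1 h for 4.17% in pif4pif5 and 2.26% in wild type, and entirely lower for 13.4% and 9.4%. At 24 h UGT78D2 was entirely higher and AT1G06000 entirely lower in both genotypes, where the shares over all probe sets were 11.2% higher and 20.5% lower in pif4pif5, and 5.81% higher and 13.8% lower in wild type. Between 24 h and 1 h the same 2 genes were entirely lower, as were 16.5% of all probe sets in pif4pif5 and 14.2% in wild type, while 17.9% and 16.1% were entirely higher. Since the genes were chosen with these values known, the counts are a description. The comparisons with darkness share the dark arrays within a genotype.

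The genotypes were compared within each condition. The difference of pif4pif5 from wild type was 0.17, 0.35 and 0.19 (SE 0.21 each) for UGT78D2 in darkness, at 1 h and at 24 h. It was 0.10, 0.42 and -0.13 (SE 0.24 each) for AT1G06000, and 0.55, 1.10 and 0.07 (SE 0.33 each) for CHIL. The value for CHIL at 1 h is 2.15-fold and the 10th largest positive genotype difference there among single-gene probe sets, but it was 1.55 without pif4pif5 replicate C and 0.80 without replicate B, and the groups overlapped. At 1 h the differences of UGT78D2 and AT1G06000 were 0.62 and 0.72 without pif4pif5 replicate C, and 0.22 and 0.23 without replicate B. In darkness, leaving out 1 array gave -0.03 (without wild-type replicate A) to 0.40 (without wild-type replicate B) for UGT78D2, and 0.00 to 0.22 (without pif4pif5 replicate B or C) for AT1G06000. For CHIL it gave 0.30 to 0.87 (without wild-type replicate B or C). At 24 h the ranges were 0.07 to 0.30 for UGT78D2 (without wild-type replicate B or C), -0.33 to 0.02 for AT1G06000 (without wild-type replicate C or A) and -0.18 to 0.24 for CHIL (without pif4pif5 replicate A or C). Arrays of pif4pif5 and wild type did not overlap for 0 of the 3 genes in any condition (a description, without a test), where over all probe sets pif4pif5 was entirely higher for 2.23%, 7.52% and 6.75% and entirely lower for 4.68%, 9.58% and 6.41% in darkness, at 1 h and at 24 h. The count at 1 h depends on 1 array. Without pif4pif5 replicate C, the remaining 2 pif4pif5 arrays were above all 3 wild-type arrays for 3 of the 3 genes, and so they were for 15.2% of all probe sets. The array left out was the lowest of its group for each of the 3 genes, but for 37.4% of all probe sets. The count and the share are therefore not on like terms. Wild-type 1 h replicate C, also the lowest of its group for each gene, was kept.

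The genotypes were also set against each other in their response. At 1 h the response in pif4pif5 minus that in wild type was 0.18 (SE 0.30) for UGT78D2, 0.32 (SE 0.35) for AT1G06000 and 0.55 (SE 0.47) for CHIL. At 24 h it was 0.02 (SE 0.30), -0.23 (SE 0.35) and -0.49 (SE 0.47). Without pif4pif5 1 h replicate C, the values at 1 h were 0.44 for UGT78D2, 0.62 for AT1G06000 and 1.00 for CHIL. The lowest values at 1 h were -0.04 for UGT78D2 (without wild-type dark replicate B), 0.12 for AT1G06000 (without pif4pif5 1 h replicate B) and 0.24 for CHIL (without wild-type dark replicate C). At 24 h leaving out 1 array gave -0.21 to 0.22 for UGT78D2 (without wild-type dark replicate B or A), -0.44 to -0.08 for AT1G06000 (without wild-type 24 h replicate C or A) and -0.80 to -0.23 for CHIL (without wild-type dark replicate C or B). Errors and ranges of this size leave a difference between the genotypes possible.

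At 1 h replicate C was low for all 3 genes. Replicate C of pif4pif5 at 1 h was below the mean of replicates A and B by 0.78 for UGT78D2, 0.90 for AT1G06000 and 1.34 for CHIL, the largest such gap of each gene on any array. In wild type replicate C was also the lowest 1 h array for each gene, by 0.10, 0.55 and 0.26. Of 122 other probe sets called higher at 1 h in wild type, 77 were also lowest on that pif4pif5 array (63.1%), against 37.4% of all tested probe sets, a count added after the values were seen. In wild type 80 of the 122 were lowest on 1 h replicate C (65.6%, against 30.8% of all probe sets), although those arrays entered that call. Without pif4pif5 1 h replicate C the 1 h difference from darkness in the mutant was 2.02 for UGT78D2 and 2.35 for AT1G06000, and what sets this array apart was not tested.

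**Figure D2:**
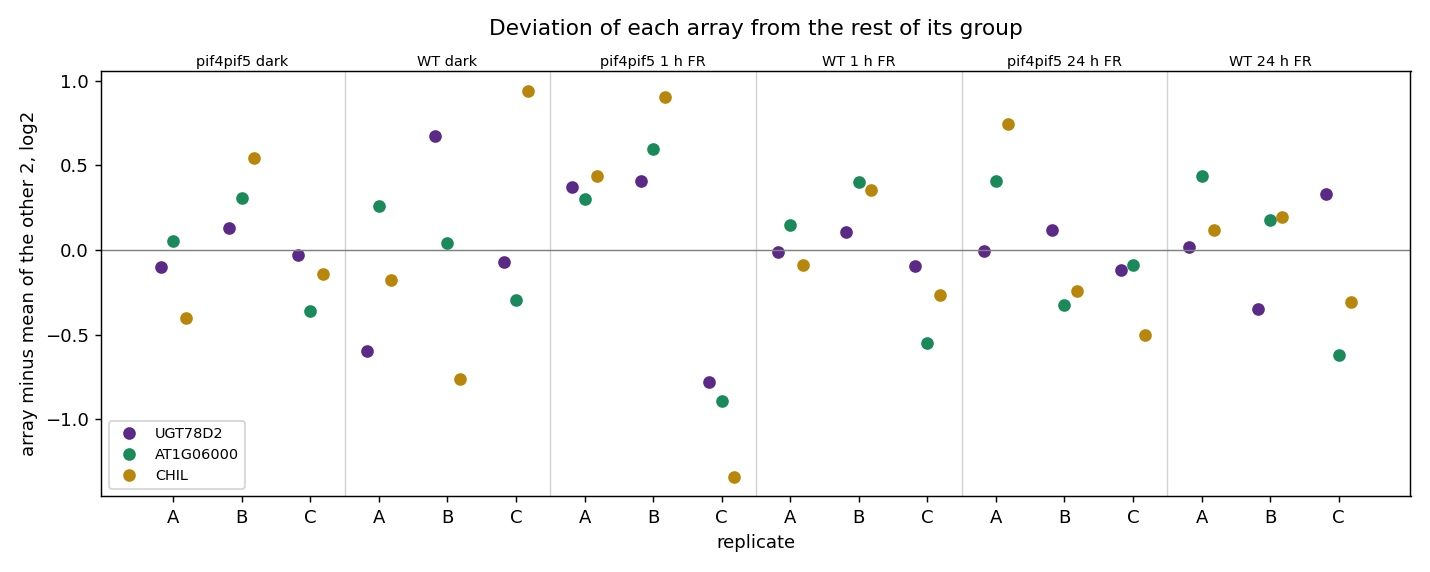
Each array's log2 intensity minus the mean of the other 2 arrays of its group (y axis), by group and replicate (x axis), for the 3 genes. Replicate C of pif4pif5 at 1 h of far-red light (FR) is low for all 3, by 0.78, 0.90 and 1.34.

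Of the rest of the pathway, 62 genes were listed and 8 are measured by a probe set of their own, namely 7 of 33 enzymes, 1 of 25 regulators and 0 of 4 transport genes. Chalcone synthase, chalcone isomerase, the flavonol synthases and the MYB activators have no such probe set in the table used and were not analysed here. With limma and Benjamini-Hochberg adjustment over all 22746 probe sets, a gene was called at an adjusted p under 0.05. At 1 h 1 of the 8 genes rose and 0 fell in pif4pif5, where 0.699% of all probe sets were called, and again 1 rose and 0 fell in wild type, where 0.787% were called. At 24 h against darkness 0 of 8 were called in pif4pif5 (11.5% of all probe sets). There 3 of 8 had an unadjusted limma p under 0.05, as had 5386 of 22746 probe sets. In wild type 1 rose and 0 fell at 24 h (11.3%). In every case the called gene was HYH.

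HYH, the bZIP factor and close relative of HY5, is the one measured regulator of the list. In darkness it read 4.94, 4.91 and 4.81 in pif4pif5, against 3.43, 4.43 and 4.63 in wild type. At 1 h it read 6.64, 6.64 and 6.07 in pif4pif5, against 5.82, 5.77 and 5.83 in wild type. At 24 h it read 5.61, 5.29 and 5.97 in pif4pif5, against 5.86, 5.80 and 5.58 in wild type. All far-red arrays exceeded all dark arrays, and replicate C was again the lowest pif4pif5 array at 1 h.

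At 1 h HYH rose by 1.57 (SE 0.24, limma adjusted p = 0.00156) in pif4pif5 and by 1.65 (SE 0.24, adjusted p = 9.14e-04) in wild type. The wild-type call was lost when only the compared groups were fitted (adjusted p = 0.0928, the highest of all alternatives, which began at 6.06e-05). At 24 h HYH rose by 1.58 in wild type (adjusted p = 2.15e-04), while in pif4pif5 it differed by 0.74 (adjusted p = 0.0571, and from 0.00314 to 0.198 over the alternatives). Between 24 h and 1 h it fell by 0.83 in pif4pif5 (adjusted p = 0.0320; 11.4% of all probe sets called), a call lost when replicate A or B of either time was left out (0.00109 to 0.148 over the alternatives). In wild type that difference was -0.06 (adjusted p = 0.948; 7.21% called). The difference between genotypes in the 24 h response was -0.84 (SE 0.34). It was not called (limma adjusted p = 0.840, with 0.0132% of all probe sets called). The level in pif4pif5 minus that in wild type was 0.72 in darkness and -0.12 at 24 h. Without wild-type dark replicate A, the lowest of its group, the dark difference was 0.36 and the wild-type rise at 24 h 1.22. Without wild-type dark replicate C, the highest, they were 0.95 and 1.82.

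The other measured glycosyltransferases are given next, and their courses were not tested against those of UGT78D2 and AT1G06000. UGT78D1, the flavonol 3-O-rhamnosyltransferase and a close relative of UGT78D2, read 6.73, 6.94 and 5.65 in pif4pif5 at 1 h, against 5.53, 5.74 and 5.69 in dark pif4pif5. Replicates A and B were high and replicate C was not, as with CHIL. The difference was 0.78 (SE 0.29, limma adjusted p = 0.559, and from 0.0341 to 1.00 over the alternatives), and it was called without 1 h replicate C, at 1.18. At 24 h UGT78D1 read 5.81, 6.09 and 5.58 in pif4pif5, with a difference from 1 h of -0.61 (SE 0.29, limma adjusted p = 0.203, and from 0.0187 to 0.568 over the alternatives). This difference was called without 1 h replicate C, at -1.01, and with array weights, at -0.75, and it stands beside -0.72 for UGT78D2. In wild type UGT78D1 read 5.71, 5.72 and 5.36 at 1 h, against 5.47, 6.36 and 5.37 in darkness, with a difference of -0.14 (SE 0.29), and 5.71, 5.47 and 5.15 at 24 h, with a difference from 1 h of -0.15 (SE 0.29).

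UGT78D3, the flavonol 3-O-arabinosyltransferase, lies beside UGT78D2 on the chromosome with 1 gene between them. Its arrays ranged from 3.59 to 4.57 over the whole series. Its differences from darkness were 0.03 and 0.24 at 1 h and 24 h in pif4pif5, and -0.28 and -0.16 in wild type. Of these 0 were called. The difference of 0.24 was 0.02 without pif4pif5 24 h replicate B, the highest of its group, and 0.35 without replicate C. Of the genes up to 3 places away on either side of UGT78D2, AT1G06000 and CHIL, 9 of 18 are measured alone, UGT78D3 among them. Not one of the 9 was called by limma at 1 h or 24 h against darkness. At an unadjusted p under 0.05 there were 0 and 2 in pif4pif5, and 1 and 3 in wild type. Over all 22746 probe sets there were 1314 and 5386 in pif4pif5, and 2570 and 5769 in wild type. At 1 h their differences from darkness lay between -0.26 and 0.09 in pif4pif5 and between -0.39 and -0.01 in wild type. Beside these stand 1.73 or more for AT1G06000 and 1.58 or more for UGT78D2, but 0.87 in pif4pif5 and 0.32 in wild type for CHIL. These neighbours were chosen after the values of the series were known. Of the 9, AT5G17040, AT5G17080, AT1G06020 and CYP79A2 had all group means below log2 3.59, the level under which probe sets counted as dim. All group means of the others lay above that level. How far low signal accounts for small differences on the dim probe sets was not tested.

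UGT79B1, which adds xylose to anthocyanins, differed from darkness by 0.66 (SE 0.21) at 24 h in pif4pif5 (limma adjusted p = 0.0543, and from 0.0199 to 0.317 over the alternatives) and by 0.08 in wild type. UGT75C1, the anthocyanin 5-O-glucosyltransferase, differed by 0.50 (SE 0.22, limma adjusted p = 0.171) at 24 h in pif4pif5 and by -0.08 in wild type. For both genes pif4pif5 24 h replicate B was the highest array of its group, at 5.48 for UGT79B1 and 4.04 for UGT75C1. Without it the 24 h differences in pif4pif5 were 0.32 and 0.18. Without replicate A the UGT79B1 value was 0.86, and without replicate C the UGT75C1 value was 0.69. The anthocyanin malonyltransferase gene 5MAT differed in wild type by -0.73 (SE 0.24, adjusted p = 0.273) at 1 h and by -0.52 (SE 0.24, adjusted p = 0.189) at 24 h. Those values were -1.08 and -0.88, both called, without wild-type dark replicate A, the lowest of its group. Without wild-type dark replicate B, the highest of its group, they were -0.44 and -0.24. DFR, which opens the anthocyanin branch, and BAN, which leads to the tannins of the seed coat, differed from darkness by -0.20 to 0.30 in either genotype at either time.

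**Figure D3:**
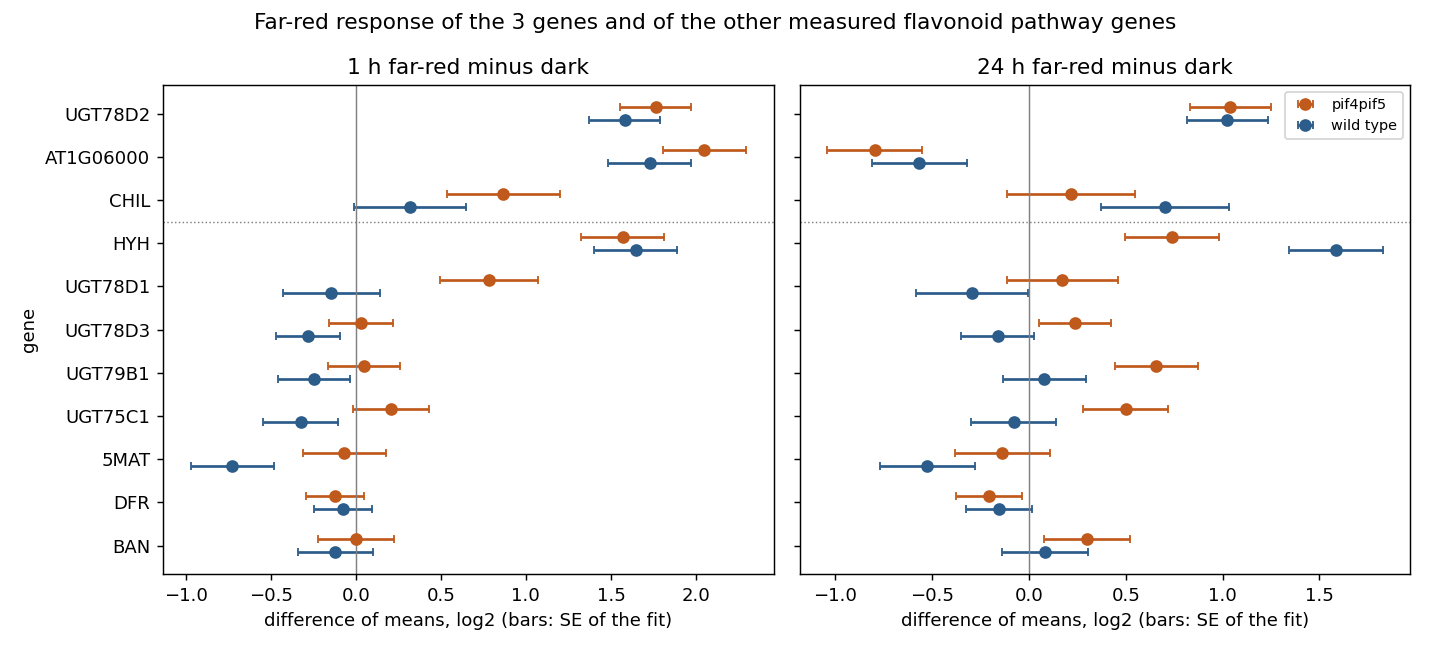
Difference of group means, far-red light minus darkness, on the log2 scale (x axis; bars are the SE of the linear model, 3 arrays per group) at 1 h (left) and 24 h (right) for UGT78D2, AT1G06000 and CHIL (above the dotted line) and 8 other measured pathway genes (y axis), with pif4pif5 above wild type in each pair. HYH is the gene below the line whose differences come near those of UGT78D2 at 1 h (1.57 in pif4pif5 and 1.65 in wild type), and AT1G06000 is on opposite sides of 0 at the 2 times.

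The 7 enzymes other than UGT78D2 and AT1G06000 had a median difference from darkness at 1 h of 0.03 in pif4pif5 (all probe sets -0.07) and -0.24 in wild type (all probe sets -0.12). At 24 h their median was 0.24 in pif4pif5 (all probe sets -0.04) and -0.15 in wild type (all probe sets -0.12). Of the 7, DFR and UGT75C1 had all group means below log2 3.59, the dim level given above. With limma 0 of the 7 were called in each of these comparisons with darkness. At an unadjusted p under 0.05 there were 1 and 2 in pif4pif5 and 1 and 1 in wild type at 1 h and 24 h. Over all 22746 probe sets there were 1314 and 5386 in pif4pif5, and 2570 and 5769 in wild type. Between the genotypes 0 of the 8 list genes were called in darkness, at 1 h or at 24 h (0.0264%, 0.0264% and 0.365% of all probe sets). At an unadjusted limma p under 0.05 there were 1, 2 and 0 of 8, beside 1654, 923 and 1881 of 22746 probe sets. For the difference in response at 1 h 0 of the 8 were called, as were 0% of all probe sets. There 1 of 8 had an unadjusted p under 0.05, as had 440 of 22746 probe sets.

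The 3 genes resembled different transcripts over the 18 arrays. Likeness was taken as Pearson's r with every other single-gene probe set, a description in which arrays of one group share their treatment. UGT78D2 was most like AFR, an F-box gene known from far-red signalling (r = 0.94), followed by AT3G56290 (0.92), HYH (0.91), AT1G64500 (0.90) and AT1G66330 (0.90). The median absolute r over all single-gene probe sets was 0.23. AFR differed from darkness by 1.62 and 0.48 at 1 h and 24 h in pif4pif5, and by 1.50 and 0.87 in wild type. As AFR was picked for following UGT78D2 over these arrays, a like course was fixed by the choice.

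AT1G06000 was most like AT2G46420 (r = 0.94), the xyloglucan-modifying enzyme gene XTH32 (0.92), the glucosinolate transporter gene GTR1 (0.91), AT5G41400 (0.90) and AT1G07050 (0.90), beside a median absolute r of 0.30. Since they were picked for following AT1G06000 over these arrays, a like course was fixed by the choice. AT2G46420 differed from darkness by 1.37 at 1 h in pif4pif5 and by 1.29 in wild type, and its 24 h level was below that of 1 h by 2.00 and 1.34. HYH ranked 1076th for AT1G06000, with r = 0.48, and HYH was above its dark level at 24 h where AT1G06000 was below its own.

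CHIL had no close match, its highest r being 0.84 with AT3G30460, then 0.81 with AT3G52740 and 0.79 with AT1G06690, AT4G29590 and AT2G42130 (median absolute r 0.18). Between the 3 genes themselves r was 0.59 for UGT78D2 and AT1G06000, 0.56 for UGT78D2 and CHIL, and 0.36 for AT1G06000 and CHIL. After the group means were removed r was 0.32, 0.33 and 0.63, with pif4pif5 1 h replicate C the shared low point. With HYH it was then 0.53 for UGT78D2, 0.22 for AT1G06000 and 0.38 for CHIL.

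**Figure D4:**
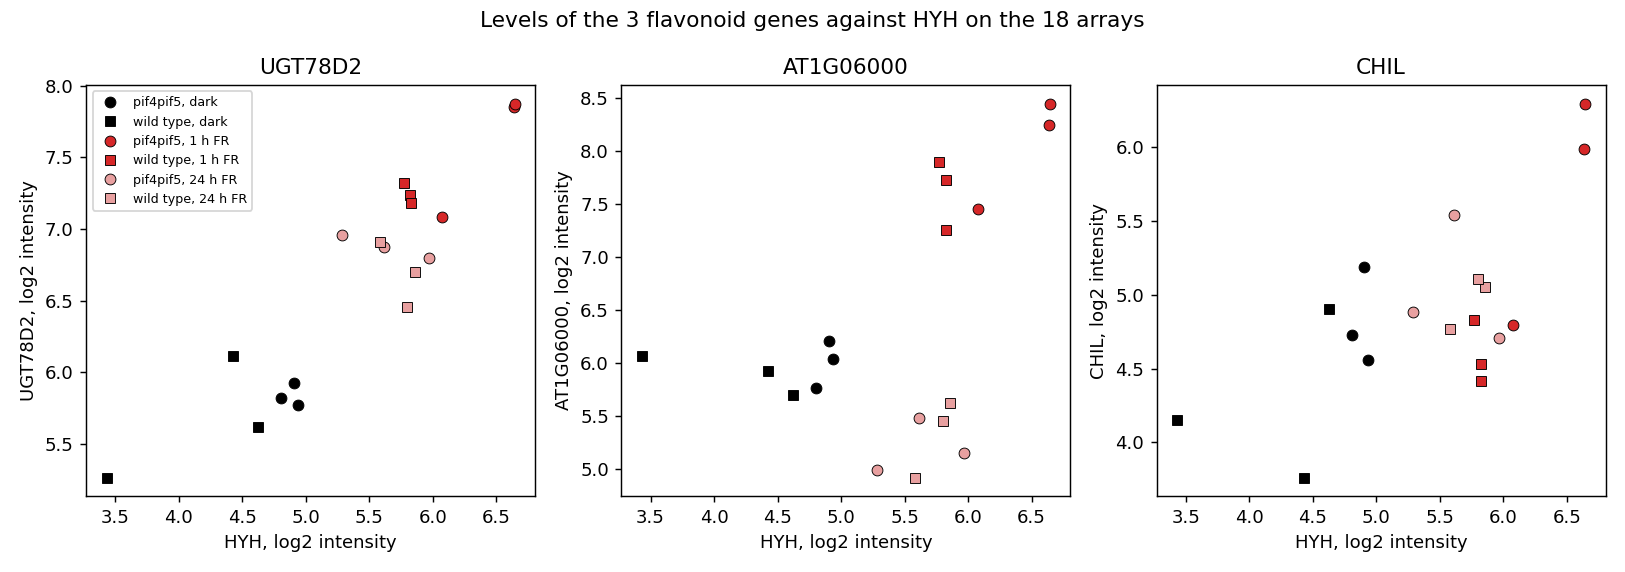
Log2 intensity of UGT78D2, AT1G06000 and CHIL (y axes) against that of HYH (x axes) on the 18 arrays; circles are pif4pif5 and squares wild type, black is darkness, red 1 h and pink 24 h of far-red light (FR). UGT78D2 climbs with HYH (r = 0.91), whereas for AT1G06000 (r = 0.48) the 24 h arrays fall below the dark ones at HYH levels like those of wild type at 1 h. After the group means were removed these r were 0.53 and 0.22.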

How the data were processed

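Transcripts were measured on 18 Affymetrix arrays, 3 in each of 6 groups of genotype and light, labelled from 100 ng of total RNA. The deposited values are log2 intensities per probe set that the authors made by RMA, per the submitters' processing notes; neither its version nor its probe annotation is given in the sources used. They were used without further scaling, so differences in array median remain. Of 22810 probe sets, 64 controls were left out. Names come from the platform's probe table and, for loci and gene order, from the RefSeq table of TAIR10.1.

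A limma 3.58.1 model (R 4.3.3) with 6 group means took in the whole set of 18 arrays, leaving 12 residual degrees of freedom beside 5.91 of the prior. P values were adjusted over 22746 probe sets by Benjamini-Hochberg. Differences are first-named group minus second. The procedure was tested on simulated data. The 3 genes, the pathway list and the comparisons were chosen with earlier results of these data known. Text names the 3 genes, the measured pathway genes, and for each of the 3 the 5 single-gene probe sets of highest correlation over the arrays. The number of arrays limits the precision.

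Replicate letters are shared by all groups. Deviations of same-lettered arrays correlated above 0.1 in 24 of 45 pairs (-0.22 to 0.45), and in all 3 pairs of 1 comparison alone, wild type at 24 h against 1 h (0.10 to 0.30). Letters were therefore taken as a block only as an alternative. Other alternatives were quantile normalization, a shift to one median, a fit on the compared groups, the dimmest 25% of probe sets left out, single-gene probe sets only, array weights and leaving out each array.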

Additional observations from a re-analysis of the deposited data

How the results depend on the processing

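Leaving out 1 array moved 74 of 234 differences of UGT78D2, AT1G06000 and CHIL by over 1.5 times or across 0, 13 of 108 between light conditions and 61 of 126 between genotypes or in the difference in response. The replicate block and the fit on the compared groups leave a difference of group means as it is by construction. Under the scalings, UGT78D2 at 24 h in pif4pif5 moved by more than the SD between replicates, at 1.19 with quantile normalization and also at 1.19 after a shift to one median, against 1.04. That shift moved the median of all probe sets there to 0.11. The count of called pathway genes changed as follows. For 1 h in wild type it was 0, in place of 1, in the fit on the compared groups, and from 1 to 2 without 1 array. For 24 h in wild type it was from 1 to 2 without 1 array. For 1 h in pif4pif5 it was also from 1 to 2. For 24 h in pif4pif5 it was 2, in place of 0, with quantile normalization, after the shift to one median and with the dim probe sets left out, 1 in the fit on the compared groups and with array weights, and from 0 to 1 without 1 array. For 24 h against 1 h in pif4pif5 it was 2, in place of 1, with array weights and from 0 to 2 without 1 array. Between genotypes it was from 0 to 1 in darkness without 1 array, and 2 at 1 h with array weights. The genes gained were HYH, UGT78D1, UGT79B1 or 5MAT.

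With the replicate block the count of called pathway genes was 1 at 1 h in wild type, as without it, and no other such count changed. The block took the calls over all probe sets between the genotypes to 23, in place of 6, in darkness, and to 39, in place of 6, at 1 h. Calls over all probe sets depended on single arrays: with replicate A of the wild-type dark group left out, they were 1685 in place of 179 at 1 h in wild type, 702 in place of 6 between genotypes in darkness and 118 in place of 3 for the difference in the 24 h response. Over the alternatives they ranged from 39 to 1685 at 1 h and 756 to 3814 at 24 h in wild type, from 743 to 3551 for 24 h against 1 h, from 30 to 474 at 1 h, 1181 to 4607 at 24 h and 1222 to 5217 for 24 h against 1 h in pif4pif5, and between genotypes from 0 to 702 in darkness, 2 to 425 at 1 h and 13 to 225 at 24 h. For the difference in response they ranged from 0 to 1 at 1 h and from 1 to 118 at 24 h. The low ends of 39, 743, 30, 1181 and 1222 come from the single-gene probe sets. There 13513 were tested in place of 22746, so those counts are not on the scale of the others. Of the 5 genes most like CHIL, 2 remained with quantile normalization and 3 after the shift to one median, 2 alternatives chosen after seeing the data. The cause of these changes was not tested.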
